A study of Mus musculus with 18 samples.

Results

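The subject is a group of genes on mouse chromosome 19 that flank Ins1, one of the mouse insulin genes, in pancreatic islets. Members were listed by name as genes at about 46 to 61 Mb, and 30 of the 35 listed genes had a row among the 10509 genes of the table. Itprip, Dusp5, Adra2a, Gpam and Ablim1 were not analysed here. All mice had been fed a high-fat diet for 12 weeks before islets were taken. The knockout group (genotype label NRK1_BKO) had 10 mice in which NRK1, the nicotinamide riboside kinase encoded by Nmrk1, was removed with an Ins1Cre driver. The WT group (genotype label NRK1_WT) had 8 mice, and each mouse gave 1 library. The titles of both groups begin with Ins1Cre, and the labels do not say whether WT mice carried the driver, a floxed Nmrk1 or neither. Strain, sex and age are not stated in the labels. The question is whether transcripts of genes next to the driver locus differed between the genotypes.

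Ins1Cre drives Cre recombinase from the Ins1 locus, so that recombination takes place in beta cells. An allele made at a locus is inherited together with its chromosomal neighbours until recombination separates them, so a driver group and a control group can differ in flanking DNA as well as in the driver. The target gene Nmrk1 also lies on chromosome 19, 33.6 Mb from Ins1. The flanking region holds genes of interest in islets in their own right. Tcf7l2 encodes a transcription factor of the Wnt pathway and is a type 2 diabetes risk gene. Grk5 encodes a kinase that phosphorylates activated G protein-coupled receptors.

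Of the 30 measured members, 6 lay on the lower-coordinate side of Ins1 and 24 on the other. Ins1 itself lies at 52264297 to 52265015 (GRCm38). Gsto1, at 4.41 Mb, was the nearest measured member on the lower side, and Xpnpep1, at 0.667 Mb, the nearest on the upper side. Promoter windows of 300 bases (250 before and 50 after the start, RefSeq, GRCm38.p6) are shown for the driver gene and for the 3 members with the largest differences, each on the strand of its gene. In the Ins1 window, chr19:52264047-52264346 on the plus strand, capitals mark CATCTG, an E-box sequence.
Ins1: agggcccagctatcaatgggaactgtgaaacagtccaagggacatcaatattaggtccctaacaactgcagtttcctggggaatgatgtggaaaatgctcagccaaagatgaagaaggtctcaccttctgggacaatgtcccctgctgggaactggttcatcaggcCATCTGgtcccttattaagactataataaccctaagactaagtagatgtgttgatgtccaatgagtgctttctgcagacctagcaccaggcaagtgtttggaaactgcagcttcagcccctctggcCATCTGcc
In the Xpnpep1 window, chr19:53038605-53038904 on the minus strand, capitals mark GGGCGG, a GC box.
Xpnpep1: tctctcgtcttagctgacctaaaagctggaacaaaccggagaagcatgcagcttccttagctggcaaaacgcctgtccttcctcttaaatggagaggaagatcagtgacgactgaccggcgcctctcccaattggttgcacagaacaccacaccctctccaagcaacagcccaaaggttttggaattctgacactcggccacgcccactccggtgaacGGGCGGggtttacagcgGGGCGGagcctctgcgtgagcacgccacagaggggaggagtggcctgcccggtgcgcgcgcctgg
Vti1a and Zdhhc6 start next to each other and are read in opposite directions. In the Vti1a window, chr19:55315807-55316106 on the plus strand, capitals mark the 120 bases that also belong to the window of Zdhhc6.
Vti1a: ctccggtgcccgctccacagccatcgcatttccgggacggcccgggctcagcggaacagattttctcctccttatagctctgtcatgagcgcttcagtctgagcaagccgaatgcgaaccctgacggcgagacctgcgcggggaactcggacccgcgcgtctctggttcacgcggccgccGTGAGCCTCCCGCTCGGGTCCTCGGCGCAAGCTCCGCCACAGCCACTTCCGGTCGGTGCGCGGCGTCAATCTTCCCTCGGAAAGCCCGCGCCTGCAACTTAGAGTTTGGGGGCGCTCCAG
The Grk5 window, chr19:60889499-60889798 on the plus strand, held none of the motifs searched and is in lower case.
Grk5: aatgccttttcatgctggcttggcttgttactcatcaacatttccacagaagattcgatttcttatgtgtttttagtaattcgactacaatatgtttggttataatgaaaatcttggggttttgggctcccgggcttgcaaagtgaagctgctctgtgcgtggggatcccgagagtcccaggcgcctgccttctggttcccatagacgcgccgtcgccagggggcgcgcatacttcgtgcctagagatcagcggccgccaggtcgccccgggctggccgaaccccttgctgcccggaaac
Motifs were searched on both strands, and none contains another. Beside CATCTG and the GC box GGGCGG, they were the E-box CACGTG, which MYC and partners of MAX such as Mxi1 bind, and the form CTTTGAT, which TCF factors such as Tcf7l2 bind. Of the measured members 28 had entries, with 44 windows in all. CATCTG was in 2 of these 44 windows and in 17.2% of all 32851 windows of the same length. CACGTG was in 4 of 44, against 7.15% of all, and CTTTGAT in 0 of 44, against 3.73%. GGGCGG was in 31 of 44, against 35.7%, and by gene in 22 of the 28. A gene can have several windows, and the 32851 windows were not limited to genes measured in islets. These are matches of letters in short windows.

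Reads came from the 3' ends of transcripts, and levels are log2 values of scaled counts (CPM) plus a fixed floor of 0.562 CPM. Over the listed genes the libraries held 2831137 to 4303680 reads. Of these, Ins2 alone took 1059554 to 2058074 reads in a library. Between 33 and 346 genes had no read in a library, with the highest numbers in WT 7 (346), KO 2 (320) and KO 3 (227). Beta-cell markers were high in every library, with a mean log2 level of 10.7 to 11.5 in the knockout and 11.1 to 11.4 in WT over 7 measured markers. These include Ins1 and Ins2. In the knockout 2 of the 7 were higher, and 0 reached an unadjusted p under 0.05. Of 3 delta-cell markers 0 were higher and 0 reached that level. Alpha-cell markers were lower in the knockout in 5 of 5 measured genes, 2 of them at an unadjusted p under 0.05, with a score of 5.10 to 6.79 against 6.04 to 7.05. The 3 adipocyte markers were all higher, 2 of them at an unadjusted p under 0.05. Their score was 2.60 to 4.61 in the knockout against 2.14 to 3.22 in WT. Over all genes, 3.18% were higher at that level and 2.22% lower, and limma called 0 at an adjusted p under 0.05. In bulk islets, fewer cells of a type and less RNA per cell cannot be told apart.

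The targeted gene Nmrk1 did not separate the groups. Its log2 level had a lowest value of 1.05, a median of 2.05 and a highest value of 2.61 in the knockout, and 0.53, 2.25 and 3.32 in WT, from 3 to 36 reads per library. The labels do not say which part of Nmrk1 was deleted, and a 3' read outside that part checks nothing, so the genotypes rest on the labels.

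At the driver locus itself, the balance of the insulin transcripts differed between the groups. Ins1 over Ins2, as a log2 ratio, ran from -4.21 to -2.78 in the knockout and from -2.91 to -1.83 in WT, and 8 of 10 knockout libraries lay below the lowest WT library. The difference of the means was -0.96, a fold of 0.513 (two-sided exact permutation over 43758 regroupings, p = 0.000297). Ins1 alone had a log2 fold change of -0.68 (SE 0.33, limma unadjusted p = 0.0508, adjusted p = 0.926). All 10 knockout libraries lay below the WT mean of Ins1, and 8 lay below its lowest WT library. Ins2 had a log2 fold change of 0.28 (SE 0.64, limma adjusted p = 0.984). These SEs draw on a variance trend over all genes. The pooled SD between libraries was 0.48 for Ins1 and 0.32 for Ins2. The transcripts of this pair are much alike, and the labels do not say how reads that match both were counted.

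The flanking genes were spread on both sides of no change. Of the 30 members, 14 had a higher and 16 a lower mean in the knockout, and their median log2 fold change was -0.037, against -0.0025 over all genes tested. With voom on recovered reads, where the median of all genes was -0.085, 21 of the 30 were lower. Limma called 0 of 30 members, and 0 of 10509 genes, at an adjusted p under 0.05 (0% of all genes). Limma voom on recovered reads and an exact rank-sum test also called 0 genes, with 575 and 535 genes at an unadjusted p under 0.05, against 567 with limma. At an unadjusted p under 0.05 there were 5 members, where 5.4% of all genes tested reached that level. Members were listed with earlier results of these data known, so a share among them is no test. The 40 other measured genes of the window had 3 at that level, or 7.5%. The 5 members are 16.7% of the 30. They did not share a direction: Xpnpep1 and Vti1a were higher, where 3.18% of all genes reached that level in this direction, and Sfr1, Trub1 and Grk5 were lower, where 2.22% did. For 25 of 30 members the 95% interval excluded a 2-fold change in either direction, against 77.1% of all genes. The exceptions were Grk5, Xpnpep1, Vti1a, Rbm20 and Prdx3. The ranges of the 2 groups overlapped in all 30 members, and 0.00952% of all genes, 1 gene, had groups that did not overlap. Mice, not genes, are the replicates, and genes of one region share their libraries.

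**Figure D1:**
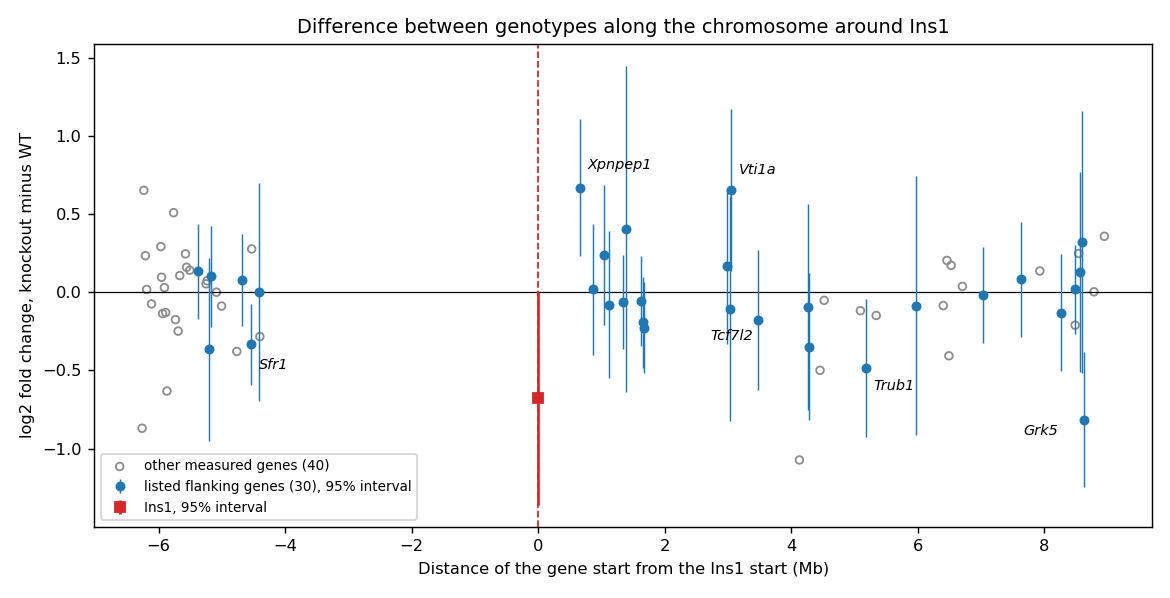
Log2 fold change (knockout minus WT, vertical axis) against distance of the gene start from the Ins1 start in Mb (horizontal axis), for the 30 listed genes with 95% limma intervals, the 40 other measured genes of the 46 to 62 Mb window without intervals, and Ins1. Points lie on both sides of 0 at all distances, and the widest departures among listed genes are Grk5 at -0.81, Xpnpep1 at 0.67 and Vti1a at 0.65.

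Closeness to Ins1 was described in bins over all measured genes of chromosome 19. Within 2 Mb of Ins1 there were 9 measured genes, all of them members, of which 4 were higher and 5 lower, with a median log2 fold change of -0.055. Of these 9, 1 reached an unadjusted p under 0.05. From 2 to 5 Mb there were 15 genes, 9 of them members, with a median of -0.10, 5 higher and 10 lower. From 5 to 10 Mb the median of 81 genes was 0.025, from 10 to 20 Mb that of 53 genes was -0.023, and beyond 20 Mb that of 198 genes was 0.016. The share of genes at an unadjusted p under 0.05 was 11.1% within 2 Mb, 20.0% from 2 to 5 Mb, 9.88% from 5 to 10 Mb, 9.43% from 10 to 20 Mb and 4.55% beyond. From the nearest bin outward, these shares stand for 1, 3, 8, 5 and 9 genes. Of the genes not on chromosome 19, 5.33% reached that level. Over the whole chromosome, 26 of the 357 measured genes of chromosome 19 reached an unadjusted p under 0.05, or 7.28%. The 40 other measured genes of the same window, which are not listed members, had a median of 0.011, with 22 higher, 18 lower and 3 at an unadjusted p under 0.05.

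Signalling genes held the lowest fold change of the group. Grk5 (chromosome 19, 60889560 to 61095968) is the listed member farthest from Ins1, at 8.63 Mb. Its log2 level had a lowest value of 3.05, a median of 3.65 and a highest value of 4.56 in the knockout, and 4.09, 4.47 and 4.91 in WT. In the knockout, 8 libraries lay below the lowest WT library, and KO 3 and KO 5, at 4.56 and 4.16, lay inside the WT range. The log2 fold change was -0.81 (SE 0.21, 95% interval -1.25 to -0.38), a fold of 0.569, with 9 of 10 knockout libraries below the WT mean. It had rank 4 by p among all 10509 genes (limma unadjusted p = 0.000584) and did not pass over all genes (limma adjusted p = 0.797). Reads per library were 23 to 100.

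The titles carry animal numbers, and 3 runs of neighbouring numbers held mice of both genotypes. In the first run the knockout libraries were KO 2 and KO 3, with 320 and 227 genes without a read. In the third run the only WT library was WT 5. Within the 3 runs the Grk5 difference was -0.25, -0.60 and -0.35, the last with 1 WT library. In the 12 libraries concerned, it was -0.40 when the fit had a term for the run (limma unadjusted p = 0.118) and -0.47 when it had none (limma unadjusted p = 0.0625). The 3 knockout libraries with the lowest Grk5, KO 1, KO 10 and KO 9 at 3.05, 3.08 and 3.16, were outside these runs, and the number of KO 1 has 1 digit more than the others. With the alpha-cell score as a covariate the log2 fold change was -0.66 (limma unadjusted p = 0.0107), and without KO 2, KO 3 and WT 7 it was -0.85. Grk5 overlaps Zfp950 on the opposite strand over 42129 bases, whose log2 fold change was 0.0032. Whether reads were counted by strand is not stated.

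The other signalling members had fold changes nearer to 0. Shoc2, a scaffold that helps activate RAF kinases, was at -0.23 (95% interval -0.52 to 0.063), with 5 of 10 knockout libraries below the lowest WT library. Slk, a Ste20-like kinase, was at 0.080 (-0.22 to 0.38). Gfra1, a receptor for GDNF family ligands, was at -0.086 (-0.92 to 0.74) and had only 1 to 27 reads in a library. None of these 3 reached an unadjusted p under 0.05.

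All 6 metabolic and redox members had a higher mean in the knockout over all libraries, although Gsto1 and Acsl5 were lower within each of the 3 runs of animal numbers. Of the 6, 1 gene, Xpnpep1, reached an unadjusted p under 0.05. Xpnpep1 (52931279 to 53038662) encodes a cytosolic aminopeptidase that removes the residue before an N-terminal proline, and it is the measured gene nearest to Ins1. Its log2 level had a lowest value of 3.94, a median of 4.24 and a highest value of 5.38 in the knockout, and 2.95, 3.71 and 4.25 in WT. All 10 knockout libraries lay above the WT mean and 5 lay above the highest WT library, with KO 2 the highest at 5.38. The log2 fold change was 0.67 (SE 0.21, 95% interval 0.23 to 1.11), a fold of 1.59, at rank 49 by p (limma unadjusted p = 0.00388, adjusted p = 0.797). Within the 3 runs the difference was 1.46, 0.22 and 1.27, and with a term for the run 0.95 (limma unadjusted p = 0.00134). The first of these run values rests on KO 2 and KO 3. The third rests on 1 WT library, WT 5, which had the lowest WT level at 2.95. Without KO 2, KO 3 and WT 7 the log2 fold change was 0.47 (limma unadjusted p = 0.0288), so the direction was the same and the size was smaller.

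The other metabolic members were closer to 0. Gsto1 (47854973 to 47864790), an omega class glutathione transferase, ran from 1.29 to 4.43 with a median of 3.33 in the knockout. In WT it ran from 2.22 to 4.11 with a median of 3.33, so that the WT range lay inside that of the knockout. Its log2 fold change was 0.0033 (SE 0.34, limma adjusted p = 0.999). Its sign turned negative with median centring, quantile normalization or recovered reads, the last with a median of -0.085 over all genes. Within the runs Gsto1 was lower in the knockout, at -1.39, -0.27 and -0.80, and with a term for the run it was at -0.82 (limma unadjusted p = 0.0356, adjusted p = 0.534). The first of these run values rests on KO 2 and KO 3, at 1.29 and 3.13, and the third on 1 WT library. Over all runs but without KO 2, KO 3 and WT 7, Gsto1 was at 0.12. Acsl5, which activates long-chain fatty acids, was at 0.17 over all libraries and at -0.18, -0.46 and -0.38 within the runs. Nt5c2, a cytosolic nucleotidase, was at 0.13 (limma unadjusted p = 0.376). Of its 10 knockout libraries 6 lay above the highest WT library and 2 below the lowest, with an SD of 0.31 against 0.15 in WT. Prdx3, a mitochondrial peroxiredoxin, was at 0.32 and Sfxn4, a mitochondrial sideroflexin, at 0.13. Prdx3 rested on 1 to 36 reads per library and Sfxn4 on 8 to 42.

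Among transcription, chromatin and DNA repair members, 5 of 6 had a lower mean in the knockout, and only Sfr1 reached an unadjusted p under 0.05. Sfr1 (47731714 to 47735588), a factor of recombination repair, lies 4.53 Mb below Ins1 and had the smallest spread between libraries of the group, with a pooled SD of 0.23. Its log2 level had a lowest value of 6.05, a median of 6.50 and a highest value of 6.80 in the knockout, and 6.45, 6.82 and 6.94 in WT. In the knockout, 9 libraries lay below the WT mean and 5 below the lowest WT library. The log2 fold change was -0.33 (SE 0.13, 95% interval -0.60 to -0.072), a fold of 0.794 (limma unadjusted p = 0.0144, adjusted p = 0.897). Within runs it was -0.27, -0.42 and -0.52, and with a term for the run -0.40 (limma unadjusted p = 0.0256).

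Tcf7l2 (55741797 to 55933659) did not differ detectably between the groups. Its log2 level had a lowest value of 3.61, a median of 4.36 and a highest value of 5.36 in the knockout, and 4.12, 4.67 and 5.46 in WT, with most of both ranges shared. The log2 fold change was -0.18 (SE 0.22, 95% interval -0.62 to 0.27, limma adjusted p = 0.972). That interval excludes a 2-fold change in either direction. The difference was 0.43, -0.57 and 0.39 within runs, so its sign was not the same in all 3. Taf5, a subunit of the general factor TFIID, was at -0.36 (-0.95 to 0.22). Mxi1, a partner of MAX that opposes MYC, was at 0.24. Smc3, a core subunit of cohesin, was at -0.060, and the cross-link repair nuclease gene Dclre1a at -0.093.

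RNA and translation members were split, with 3 higher and 3 lower. Trub1 (57452892 to 57491005), a pseudouridine synthase of tRNA and mRNA, had a lowest log2 level of 3.09, a median of 3.43 and a highest of 4.66 in the knockout, and 3.86, 4.04 and 4.35 in WT. In the knockout, 8 libraries lay below the lowest WT library, while KO 8, at 4.66, lay above the highest and KO 10, at 4.32, inside the WT range. The log2 fold change was -0.48 (SE 0.22, 95% interval -0.93 to -0.040), a fold of 0.716 (limma unadjusted p = 0.0337, adjusted p = 0.925). With the alpha-cell score as a covariate it was -0.33 (limma unadjusted p = 0.198). Within runs it was -0.68, -0.87 and -0.16, and without KO 2, KO 3 and WT 7 -0.47 (limma unadjusted p = 0.0501). Eif3a, the largest subunit of a translation initiation factor, had the highest level of the group, with a mean log2 value of 9.01 in the knockout and 8.99 in WT and a log2 fold change of 0.018 (95% interval -0.26 to 0.30). Pdcd4, an inhibitor of a translation initiation helicase, was at -0.055 and the ribosome biogenesis factor Pdcd11 at 0.10. The splicing factor gene Smndc1 was at -0.078. The splicing regulator Rbm20 was at 0.40 (-0.64 to 1.45), the widest interval of the group, and had 1 to 50 reads in a library.

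**Figure D2:**
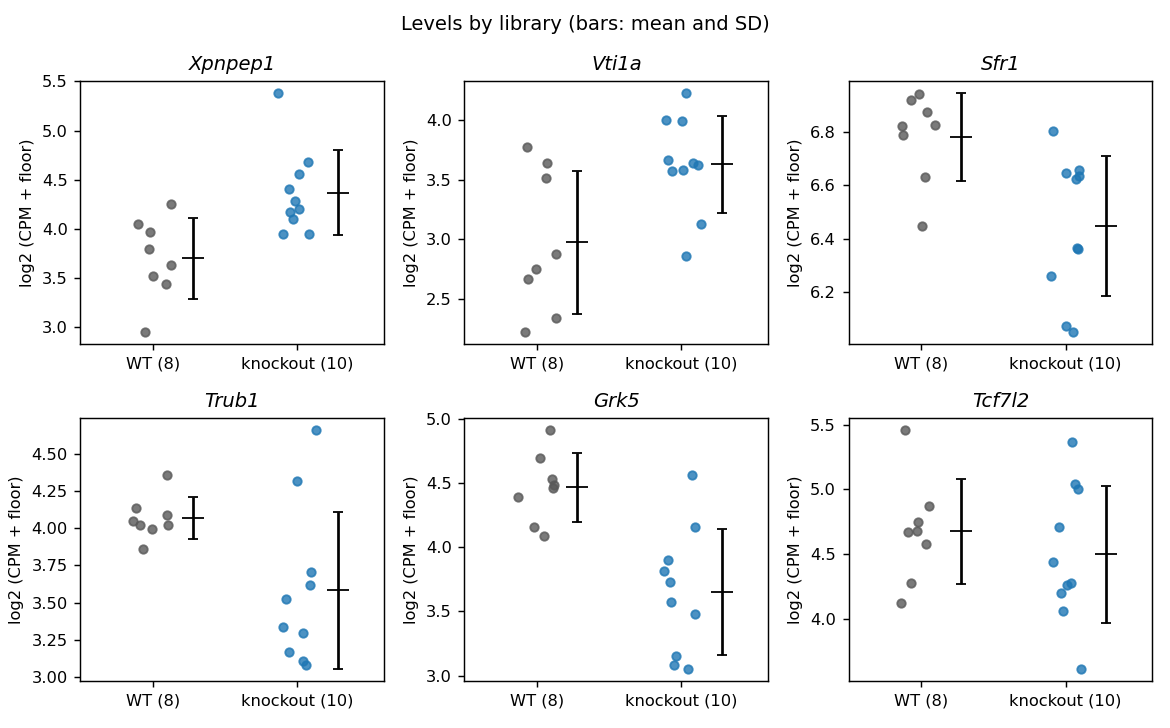
Log2 level (CPM plus the floor) of 6 flanking genes in each of 8 WT and 10 knockout libraries, with mean and SD as bars. The vertical scale differs between panels. In Grk5 and Trub1, 8 knockout points lie below all WT points, in Xpnpep1 5 lie above all WT points, and in Tcf7l2 the groups share most of their range.

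Among membrane, traffic, cytoskeleton and remaining members, 3 were higher and 5 lower, and Vti1a reached an unadjusted p under 0.05. Vti1a (55316030 to 55627461) encodes a SNARE protein of Golgi and endosome traffic. Its log2 level had a lowest value of 2.86, a median of 3.63 and a highest value of 4.23 in the knockout, and 2.22, 2.82 and 3.77 in WT. In the knockout, 9 libraries lay above the WT mean and 3 above the highest WT library. The log2 fold change was 0.65 (SE 0.25, 95% interval 0.14 to 1.17), a fold of 1.57 (limma unadjusted p = 0.0150, adjusted p = 0.897), from 11 to 76 reads per library. Within runs it was 0.62, 0.40 and 0.74, and with a term for the run 0.58 (limma unadjusted p = 0.106).

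Several members overlap or adjoin a neighbour. Zdhhc6, a palmitoyltransferase of the endoplasmic reticulum whose promoter window shares the 120 bases in capitals above, was at -0.10 (95% interval -0.82 to 0.61), from 2 to 24 reads per library. Whether it differed from that of Vti1a was not tested. Bbip1, a subunit of the BBSome of cilia, and Shoc2, whose annotated spans overlap by 396 bases on opposite strands, were at -0.19 and -0.23. Bbip1 also overlaps Pdcd4 by 7937 bases on the opposite strand, and reads within that stretch could not be told apart without counting by strand. Nhlrc2 and Dclre1a, whose spans overlap by 35 bases, were at -0.35 and -0.093.

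The remaining members of this set lay near 0. Add3 (53140443 to 53247326), the adducin of the membrane skeleton that is the next measured gene beyond Xpnpep1, ran from 4.47 to 6.38 with a median of 5.43 in the knockout. In WT it ran from 4.95 to 5.84 with a median of 5.34. Its log2 fold change was 0.018 (SE 0.20, limma adjusted p = 0.994). Its sign turned negative with sample weights, and with recovered reads, where the median over all genes was -0.085. The Rab11 effector Rab11fip2 was at 0.083, Cacul1, a cullin-domain protein, at -0.13 and Pdzd8, which links the endoplasmic reticulum to endosomes, at -0.018.

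**Figure D3:**
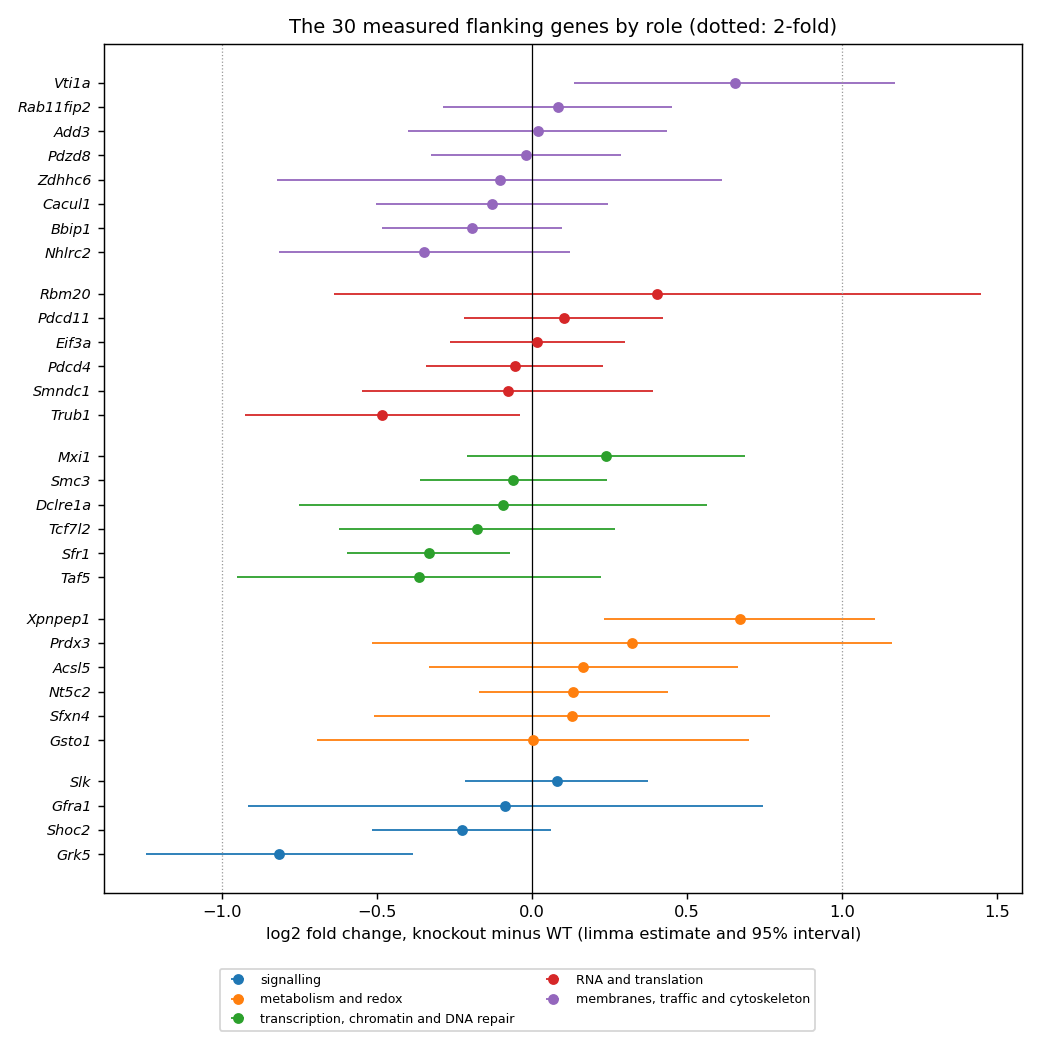
Limma log2 fold change (knockout minus WT) with 95% interval for the 30 measured flanking genes, grouped by role and coloured by it, with dotted lines at a 2-fold change. Intervals that do not cross 0 belong to Grk5, Xpnpep1, Sfr1, Trub1 and Vti1a.

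The partners of these genes in their pathways were described by lists chosen by function. Of 21 measured adrenergic receptor, G protein and GRK genes, 10 were higher and 11 lower, with a median of -0.0029. Beside Grk5, only Gnaq, a G protein that activates phospholipase C, reached an unadjusted p under 0.05, at 0.41 (SE 0.16). Of 20 Wnt and TCF genes 9 were higher and 11 lower, with a median of -0.079, and 0 reached that level. Of 17 glycerolipid synthesis genes 9 were higher and 8 lower, with a median of 0.047, and 1 reached it, the acyl-CoA synthetase gene Acsl4 at 0.42 (SE 0.20). The 13 cohesin genes had a median of -0.052, the 12 eIF3 genes -0.048 and the 11 peroxiredoxin and thioredoxin genes 0.023, with 0 at that level in each. Of 17 genes from RAS to ERK, 10 were higher and 7 lower, with a median of 0.083. Of these 17, 3 reached an unadjusted p under 0.05, or 17.6%, against 5.4% of all genes tested. The 3 were Spred1, Mras and Dusp1. Spred1, an inhibitor of this pathway, was at 1.11 (SE 0.37, from 0 to 32 reads). Mras, the partner of Shoc2, was at -0.39 (SE 0.16) and the phosphatase gene Dusp1 at 0.68 (SE 0.30). Limma called 0 genes of these lists over all genes.

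Variation between libraries within a group was not the same across members. The pooled SD of the log2 level ran from 0.23 in Sfr1 to 1.23 in Rbm20, with a median of 0.42, against 0.50 over all genes. In 7 members at least 1 library had fewer than 10 reads, and 0 members had a library with no read. KO 2 had the highest Xpnpep1 of all libraries, at 5.38, and the lowest Gsto1, at 1.29. KO 3 and WT 7 each had 1 read of Prdx3.

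**Figure D4:**
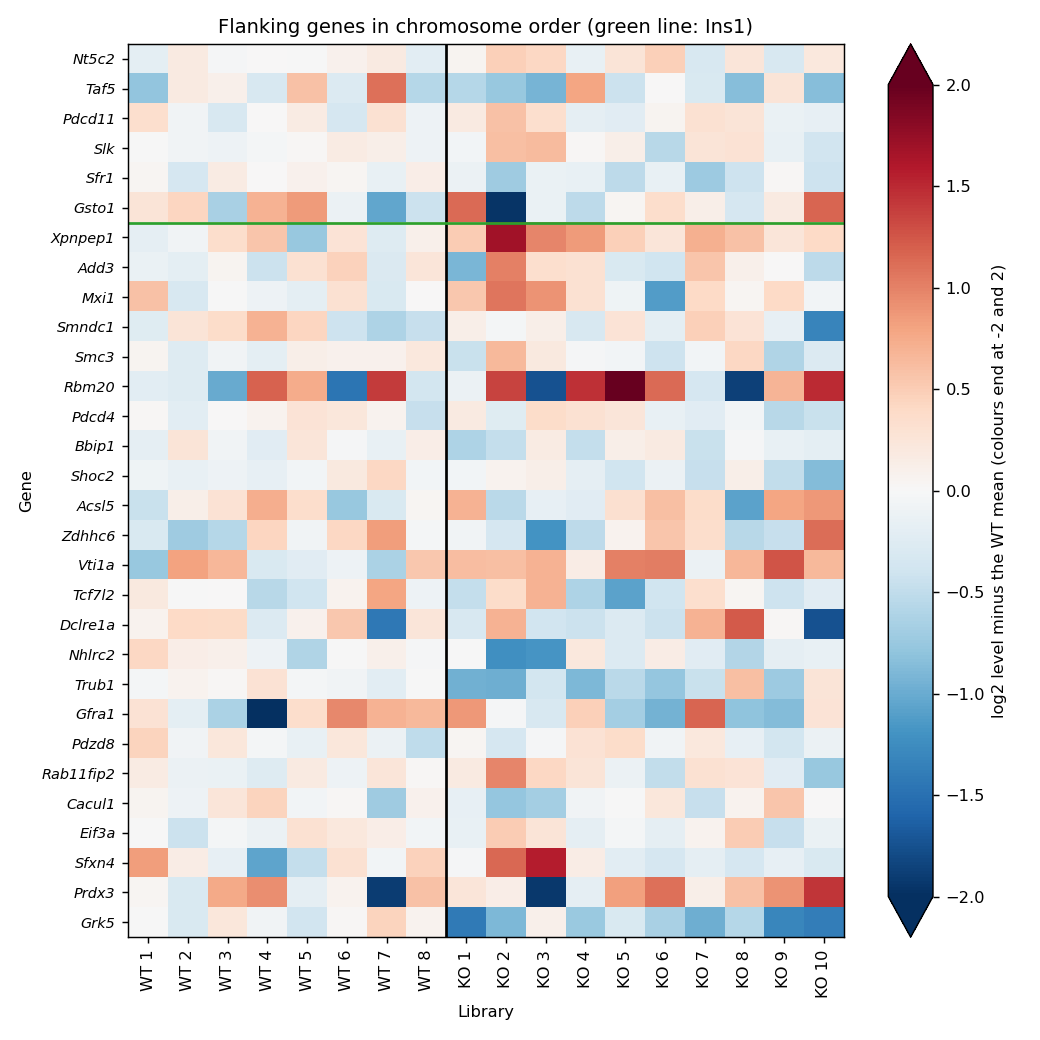
Log2 level minus the WT mean for each of the 30 flanking genes (rows, in chromosome order, with a green line at the place of Ins1) in 8 WT and 10 knockout libraries (columns). Colours end at -2 and 2. Red cells across the knockout columns are seen for Xpnpep1 and blue cells for Grk5, whereas most rows mix both.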

How the data were processed

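Islet RNA of 18 mice was read with a 3' end kit (QuantSeq FWD), per the labels' protocols. Named in the submitters' processing notes, with no role, are GRCm38, edgeR, HTSeq 0.6.1 and STAR 2.5.2. The authors deposited log2 values for 10509 genes. After the shared floor of 0.562 CPM was subtracted, linear values were whole multiples of 0.238 to 0.411 CPM (100% of low values within a tolerance of 0.05 reads), so reads were recovered. The sources used here do not give the scaling, the filter or the origin of the floor. PCR copies are not independent molecules.

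Members, gene lists, roles, tests and the rule for named genes were chosen with earlier results of these data known. Named in full were Grk5, Tcf7l2, the 2 measured members nearest to Ins1 on each side and members at an unadjusted p under 0.05, with Ins1, Ins2 and Nmrk1 for reference. From the lists, up to 4 genes at that level were named. The motifs were chosen later.

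The test was limma 3.58.1 in R 4.3.3 with a variance trend and no covariate, two-sided, on all 10509 genes, with Benjamini-Hochberg adjustment over them. Requiring log2 above 0 in 8 or more samples removed no gene. The script was tested on simulated data. Coordinates came from RefSeq (GRCm38.p6), in which 10508 gene identifiers were found. The labels give no replicate numbers or batches, so libraries were numbered within a group. Runs of consecutive animal numbers in the titles are no stated batch. Nothing in the labels marks libraries as repeats of one animal, and each of the 73 within-group pairs differed beyond sampling noise (chi-square per degree of freedom 6.01 to 41.3). Alternatives covered filters, the constant added, normalization, variance models, weights, recovered reads, rank-sum tests, covariates and libraries left out.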

Additional observations from a re-analysis of the deposited data

Results flagged for a closer look

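Of 60 group and gene pairs, 7 held a library far from the others of its group by a gap test that flags about 1 in 20 groups by chance. Of the 7, 5 were in KO 2, KO 3 or WT 7, which also had the most genes without a read. In the knockout, Xpnpep1 was highest in KO 2 at 5.38, against 4.68 in the next library, and its log2 fold change without KO 2 was 0.56. Mxi1 was lowest in KO 6 at 3.61, against 4.64, and was at 0.39 without it. Smndc1 was lowest in KO 10 at 2.95, against 3.94, and was at 0.059 without it. Prdx3 was lowest in KO 3 at -0.070 and in WT 7 at -0.040, each from 1 read, and was at 0.57 without KO 3 and 0.051 without WT 7. Also in WT 7, Dclre1a was lowest at 1.94, from 8 reads, and Cacul1 at 4.37. Without WT 7 they were at -0.30 and -0.23.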

How the results depend on the processing

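The number of genes called was 0 in all 15 alternatives and in all 18 fits that left out 1 library. Of the 15, the fit with no filter on low values is identical to the main fit, because the main filter removed no gene. The members at an unadjusted p under 0.05 numbered 2 to 6 over the alternatives and 4 to 5 with 1 library left out, where the share of all genes at that level was itself 4.90% to 8.74% and 4.39% to 6.94%. With a run term 4 members stood against 8.74% of all genes, and the 2 members against 5.53%. The 2 came from the 12 libraries in mixed runs when the fit had no run term, an alternative chosen after seeing the data. The median of the members was -0.12 with voom on recovered reads (all genes -0.085), 0.013 with the alpha-cell score as a covariate, 0.012 in the mixed runs with a run term and 0.019 with none. With 1 library left out it ran from -0.051 to 0.014, the last without KO 10. With a stricter filter of log2 above 3 the median was -0.052 from 2 to 5 Mb and 0.040 from 10 to 20 Mb. The Ins1 to Ins2 difference was -1.03 to -0.87 with 1 library left out. Grk5, Xpnpep1, Vti1a, Sfr1 and Trub1 kept their direction in all fits. These 5 are the members at an unadjusted p under 0.05 in the main fit, and all fits reuse the same libraries, so this is no independent check. Over the 15 alternatives, Grk5 and Vti1a were at an unadjusted p under 0.05 in 13, Trub1 in 12, and Sfr1 and Xpnpep1 in 15. With 1 library left out Trub1 was at that level in 12 of 18 fits, and the other 4 in all. With 1 library left out, Grk5 was -0.92 to -0.75, Xpnpep1 0.56 to 0.75, Vti1a 0.55 to 0.77, Sfr1 -0.38 to -0.29 and Trub1 -0.60 to -0.43.

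Signs turned in 3 of the genes named in full. Tcf7l2 was 0.058 in the mixed runs, whether or not a run term was fitted. Gsto1 was -0.0034 with median centring, -0.020 with quantile normalization, -0.070 with voom, -0.0051 and -0.070 with the acinar and alpha-cell scores, and -0.82 (limma unadjusted p = 0.0356) and -0.67 (limma unadjusted p = 0.0900) in the mixed runs with a run term and with none. Add3 was -0.16 with sample weights, -0.087 with voom and -0.19 without KO 2, KO 3 and WT 7. The voom values of Gsto1 and Add3 stand beside a median of -0.085 over all genes in that fit. With 1 library left out, Gsto1 ran from -0.14 to 0.22 and Add3 from -0.091 to 0.12. The causes were not tested. Members with few reads, such as Prdx3, Gfra1 and Rbm20, have intervals too wide to exclude moderate differences. The labels give no replicate numbers, so mice were not paired, and the run term was the only block fitted.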

Other observations

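The spread between libraries was larger in the knockout than in WT for 26 of 30 listed flanking genes, against 61.9% of all genes. In the 40 other measured genes of the window, the share over all libraries was no larger than that of all genes. The median ratio of the SDs was 1.34 over the flanking genes and 1.14 over all genes. Without KO 2, KO 3 and WT 7, the count was 23 of 30, against 55.6% of all genes. Trub1 had an SD of 0.53 in the knockout and 0.14 in WT, and Slk 0.39 and 0.097. This was noticed from the values and was not tested.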
